A study of Rattus norvegicus with 24 samples.

Results

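The 31 genes described here are those whose RNA fell at least 2-fold when IRE1α was induced for 24 h in rat INS1 cells, and stood close to the uninduced level when either of 2 kinase compounds was present. They are a small minority: of 26689 gene IDs in the deposited table, 10683 had an uninduced mean of at least 5 CPM (counts per 1 M counts of a library) at 24 h, 847 of these (7.93%) fell to 1/2 or less with induction, and 31 of the 847, or 3.66%, were near the uninduced level with both compounds. The members were chosen by the measured means of the 4 groups at 24 h. The rule kept an ID when the share of its fall that remained with a compound, meaning the distance from the uninduced to the compound mean divided by the distance from the uninduced to the induced mean, lay between -20% and 15% for PAIR1 and for KIRA9. A negative share is a level above that of uninduced cells. The rule also set aside 8 listed IDs, of which 0 met its thresholds. Since the 24 h values chose the members, they are given below as a description. Tests compare only the 4 h groups, whose levels the rule did not use. The spread between replicates in these tests was estimated from all 24 libraries, those at 24 h included.

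INS1 cells derive from a rat insulinoma and serve as a stand-in for the insulin-secreting beta cell. The cells of every group carried a doxycycline-inducible transgene for mouse IRE1α (Ern1). The 8 groups, each of 3 libraries, were uninduced cells given vehicle, cells induced with doxycycline and given vehicle, induced cells given PAIR1, and induced cells given KIRA9, each at 4 h and at 24 h. No group received a compound without doxycycline or doxycycline without the transgene, so effects of the drug itself, of the transgene and of the compounds outside IRE1α cannot be told apart. Doses are not stated in the labels, and whether the line is 1 clone is not stated either. In 6 libraries, those induced with vehicle, the time characteristic names the opposite time to the one in their titles and column names, and the titles were followed.

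IRE1α is a sensor of misfolded protein in the membrane of the endoplasmic reticulum, with a kinase and an RNase domain on its cytosolic side. When its kinase domains pair and phosphorylate each other, the RNase splices the XBP1 messenger RNA, which then encodes a transcription factor for chaperones and secretory machinery. Under stronger activation the same RNase also cuts other RNAs at the reticulum, a process known as regulated IRE1α-dependent decay, which in beta cells is known to reach insulin messenger RNA. The series title describes PAIRs as partial antagonists that compete with ATP, and KIRAs are known as kinase inhibitors that attenuate the RNase.

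Gene names are not paired with IDs in the files, and the gene and promoter tables used here matched 0 of 26689. No member is therefore given a name, role or sequence, lists of pathways and cell type markers could not be counted, and the labelled cell type and the level of the transgene were not checked. At most 4 IDs are printed, and the other members are called by their rank, from 1 to 31, in mean uninduced level at 24 h. Library totals ran from 12.6 to 23.8 M counts, and the lowest count of any member in any library was 27, so that no value below rests on an undetected gene. Apart from the treatments, 6 libraries named in earlier work on these data stood out by a block of 41 IDs, none of them a member. The block holds the IDs whose lowest level in the 6 exceeded their highest level in the other 18. It took 0.667 to 0.744% of counts in the 6 and 0.0705 to 0.0853% in the other 18, an order fixed by that definition. Of the 6, those at 4 h were induced replicate 3 and uninduced replicate 2. Those at 24 h were induced replicates 1 and 2, uninduced replicate 2 and PAIR1 replicate 1. All levels are RNA per total RNA counted, in which fewer cells of a type and less RNA per cell cannot be told apart.

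The members spanned a wide range of abundance. Their uninduced means at 24 h ran from 5.17 to 1193 CPM with a median of 33.8. Of the 31, 11 stood at 100 CPM or more, 14 between 10 and 100, and 6 below 10. The 3 most abundant held 58.7% of their summed level. Together the 31 took 0.484 to 0.490% of counts in the uninduced libraries at 24 h and 0.210 to 0.213% in the induced libraries. With PAIR1 the sum was 0.464 to 0.466%, just under the uninduced range, and with KIRA9 it was 0.505 to 0.507%, just over it. The groups at 24 h did not overlap in this sum, which follows mainly the 3 most abundant members.

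**Figure D1:**
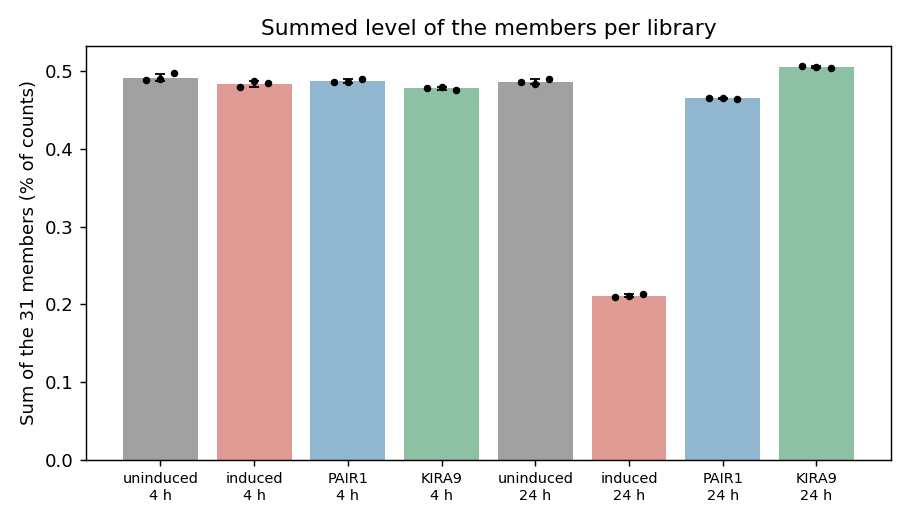
Summed level of the 31 members as a percent of all counts (vertical axis) in each of the 8 groups, with bars at the mean, error bars for the SD and points for the 3 libraries of a group. The induced libraries at 24 h, at 0.210 to 0.213%, stand apart from the other 21 libraries, which lie between 0.464 and 0.507%.

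At 4 h the sum was 0.489 to 0.498% in uninduced, 0.480 to 0.487% in induced, 0.486 to 0.490% with PAIR1 and 0.476 to 0.480% with KIRA9. All 12 libraries at 4 h thus lay near the uninduced level of 24 h, the KIRA9 libraries the lowest together with induced replicate 1. In uninduced cells the ratio of the 24 h to the 4 h mean had a median of 1.01 over the members. It ran from 0.699 to 1.27, so that some single members differed between the times, and 16 of the 31 were higher at 24 h. The median ratio was 0.990 over all IDs of at least 5 CPM. In induced cells the same ratio had a median of 0.436 and ran from 0.335 to 0.613, so that every member stood lower at 24 h than at 4 h there.

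ENSRNOG00000005438 was the most abundant member. Its levels at 24 h were 1177, 1194 and 1207 CPM in uninduced cells, 433, 444 and 449 in induced cells, 1096, 1107 and 1130 with PAIR1, and 1215, 1211 and 1203 with KIRA9. The induced libraries were low by a wide margin, the PAIR1 libraries lay just below the uninduced ones without overlap, and the KIRA9 libraries overlapped them. The fall was 2.70-fold, of which 10.9% remained with PAIR1 and -2.22% with KIRA9.

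ENSRNOG00000000304, the member of rank 2, stood at 976, 910.3 and 903 CPM in uninduced cells at 24 h, 404, 421 and 429 in induced cells, 916, 922 and 909.99 with PAIR1, and 1016, 984 and 985 with KIRA9. PAIR1 lay inside the uninduced range, and KIRA9 lay above all uninduced libraries. Its fall was 2.22-fold, with 2.79% of it remaining with PAIR1 and -12.7% with KIRA9.

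The deepest fall was that of the member of rank 22, from 21.8, 22.7 and 21.5 CPM in uninduced to 8.98, 6.19 and 7.05 in induced libraries, or 2.97-fold. With PAIR1 it stood at 20.5, 19.6 and 20.03 CPM, and with KIRA9 at 19.8, 21.2 and 23.1. Its PAIR1 libraries were all below the uninduced ones, and its KIRA9 libraries overlapped them. The least abundant member, of rank 31, went from 5.08, 5.19 and 5.23 CPM to 1.98, 1.94 and 2.22 with induction. It stood at 5.08, 5.53 and 5.16 CPM with PAIR1 and at 3.94, 4.59 and 6.28 with KIRA9, where the libraries spread most among all members, with an SD of 24.5% of the mean.

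The falls of the 31 were close to one another and close to the limit of the rule. They ran from 2.01-fold to 2.97-fold with a median of 2.22, and 6 of the 31 reached 2.5-fold. Among all 847 lowered IDs the median was 2.61-fold and 474 reached 2.5-fold, up to 40.2-fold. All 31 members had every induced library below every uninduced library, as did 97.6% of the 847, and all 31 had every induced library below every PAIR1 and KIRA9 library, as did 92.9% of the 847. These counts restate what the rule asked for. Within groups the members were measured with a median coefficient of variation of 5.53% without induction at 24 h, 6.38% with it, 3.55% under PAIR1 and 4.57% under KIRA9.

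**Figure D2:**
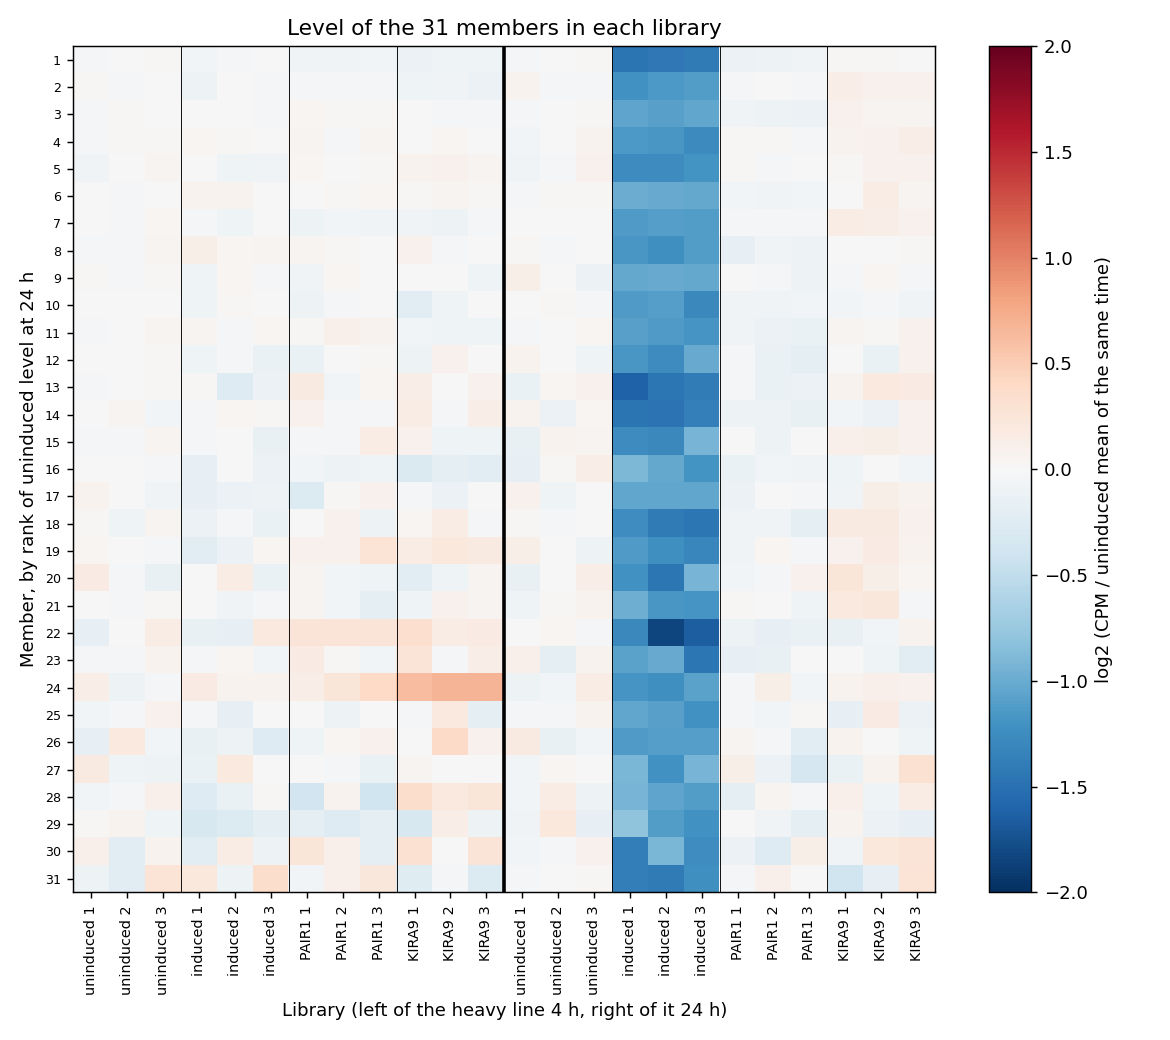
Level of each member (rows, by rank of uninduced level at 24 h) in each of the 24 libraries (columns, numbered by replicate), as log2 of its CPM over the uninduced mean of the same time. The 3 induced libraries at 24 h are blue in all 31 rows, and in the row of rank 24 the KIRA9 libraries at 4 h stand out in red.

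The compounds did not bring the members to exactly one level. With PAIR1 26 of the 31 means lay below the uninduced mean, whereas with KIRA9 11 did and 20 lay above it. Over the 847 lowered IDs the mean lay below it in 813 with PAIR1 and in 597 with KIRA9. The commonest order of means, found in 16 members, was induced, PAIR1, uninduced, KIRA9 from low to high. In 10 both compounds lay below the uninduced mean, in 4 both lay above it, and in 1 PAIR1 lay above and KIRA9 below. These orders were not counted over the 847. Sides and orders in the members depend on where the window cuts the shares. The shares of the fall remaining with PAIR1 had a median of 8.22% and ran from -2.88 to 14.3%, and those with KIRA9 had a median of -7.89% and ran from -18.4 to 12.2%. PAIR1 retained the larger share in 29 of 31 members, or 93.5%, as it did in 93.7% of the 847 lowered IDs. All 3 PAIR1 libraries lay below all 3 KIRA9 libraries in 13 of the 31 members, and in 673 of the 847 (79.5%). The range of the PAIR1 libraries overlapped that of the uninduced libraries in 22 of the 31, and in 17.2% of the 847. The range of the KIRA9 libraries did so in 24 of the 31, and in 48.1% of the 847. The window held both compound means near the uninduced mean, so these differences from the 847 follow from the choice of members.

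The window of shares cuts through a continuous spread. Among the 847 lowered IDs the share remaining with PAIR1 had a median of 44.1%, with quartiles at 28.4 and 62.6%, and the share with KIRA9 had a median of 11.7%, with quartiles at -3.27 and 27.8%. The window took in 89 IDs for PAIR1 and 378 for KIRA9, so that PAIR1 was the narrower gate. Of those 89, 51 were left out because they passed above the uninduced level by more than 20% of the fall with KIRA9, and 7 because more than 15% of the fall remained with it. Another 346 IDs met the KIRA9 window but kept more than 15% of the fall with PAIR1.

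**Figure D3:**
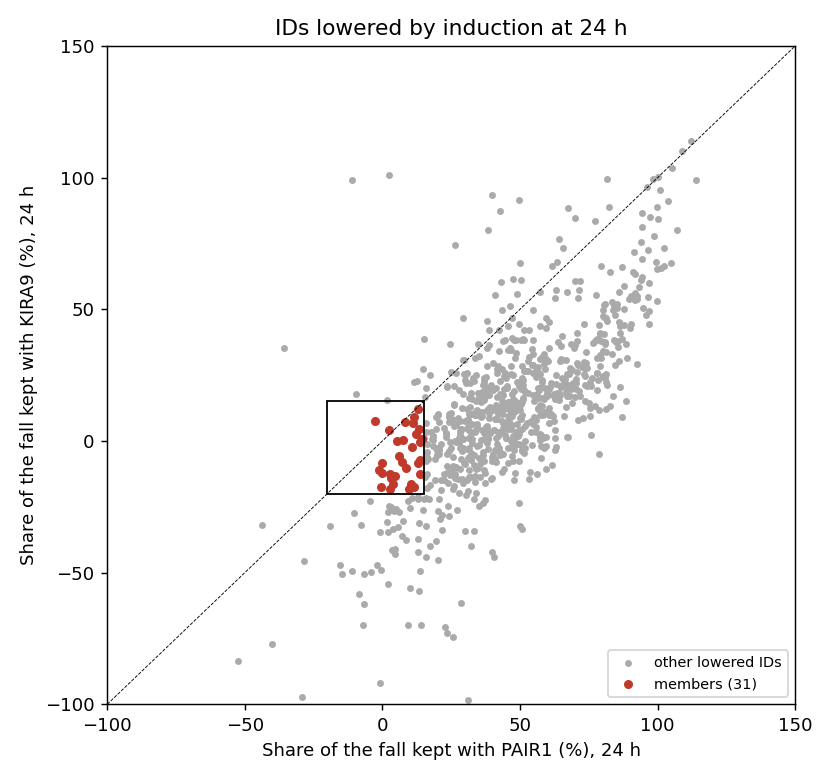
Share of the fall at 24 h that remained with PAIR1 (horizontal axis, %) and with KIRA9 (vertical axis, %) for 840 of the 847 lowered IDs, 7 lying outside the axes. The 31 members, in red, lie in the drawn window from -20 to 15% at the edge of the main cloud, with PAIR1 shares from -2.88 to 14.3%, and most IDs lie below the dashed line of equal shares.

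Several IDs lay close to a limit. The members just inside the limit on PAIR1 kept 14.3 and 13.7% of the fall, and the first IDs outside kept 15.2 and 15.4%. For KIRA9 the members nearest to the lower limit stood at -18.4 and -18.1% and the first outside at -21.2 and -21.6%, and at the upper limit 12.2 and 9.13% stood inside and 15.6 and 17.8% outside. The smallest falls inside were 2.013-fold and 2.015-fold, and falls of 1.995-fold and 1.983-fold stood just outside. The lowest uninduced levels inside were 5.17 and 6.21 CPM, and 4.86 and 2.55 CPM stood just outside. On the lower side of the PAIR1 limit the members nearest to it were at -2.88 and -1.11%, and the one ID beyond that limit which met all others was at -134%.

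The first test asked whether the members had already moved 4 h after induction, in libraries the rule did not use. None of the 31 was called: 0 rose and 0 fell by the edgeR quasi-likelihood test at an adjusted p below 0.05, against 0.298% of all 13760 IDs tested, 0.0363% higher and 0.262% lower. At an unadjusted p below 0.05 there was 1 member, and DESeq2 called 0. The members' log2 changes had a median of -0.03 and ran from -0.26 to 0.18, and 24 of the 31 were smaller than 0.1 in size. Over all IDs tested the median was 0.00. The change was positive in 9 of the 31 members and in 51.0% of all IDs tested. For the 11 members of at least 100 CPM the changes ran from -0.05 to 0.08, and their 95% intervals reached from -0.13 to 0.16, far from the changes below -1 seen at 24 h. Over all 31 members the intervals reached from -0.52 to 0.52. The other 816 lowered IDs had a median of -0.05. They included 32 that had fallen at 4 h, or 3.92%, and 0 that had risen. Whether the members differ from them was not tested.

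PAIR1 was also compared with induced vehicle cells at 4 h. It raised 1 of 31, or 3.23%, and lowered 0, while 3.20% of all IDs tested were called, 2.31% higher and 0.887% lower. The median log2 change was 0.03, with a range from -0.09 to 0.29, against a median of 0.00 over all IDs. Among the other 816 lowered IDs 111 were higher and 2 lower with PAIR1, or 13.8% called, with a median of 0.07. The share of members called was thus near that of the whole table.

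With KIRA9 at 4 h, 2 of the 31 members were higher and 1 was lower than in induced vehicle cells, which is 9.68% called against 11.7% of all IDs, 6.01% higher and 5.66% lower. The median log2 change was 0.05, with a range from -0.36 to 0.56, and it was 0.00 over all IDs. Of the other 816 lowered IDs 173 were higher and 27 lower, or 24.5% called, with a median of 0.06. Among the 51 IDs that met the PAIR1 window and overshot with KIRA9 at 24 h, 14 were higher and 2 lower at 4 h, and among the 346 IDs that met the KIRA9 window and kept more than 15% of the fall with PAIR1 50 were higher and 6 lower. Both compounds were compared with the same 3 induced libraries, so their changes are not independent of each other.

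**Figure D4:**
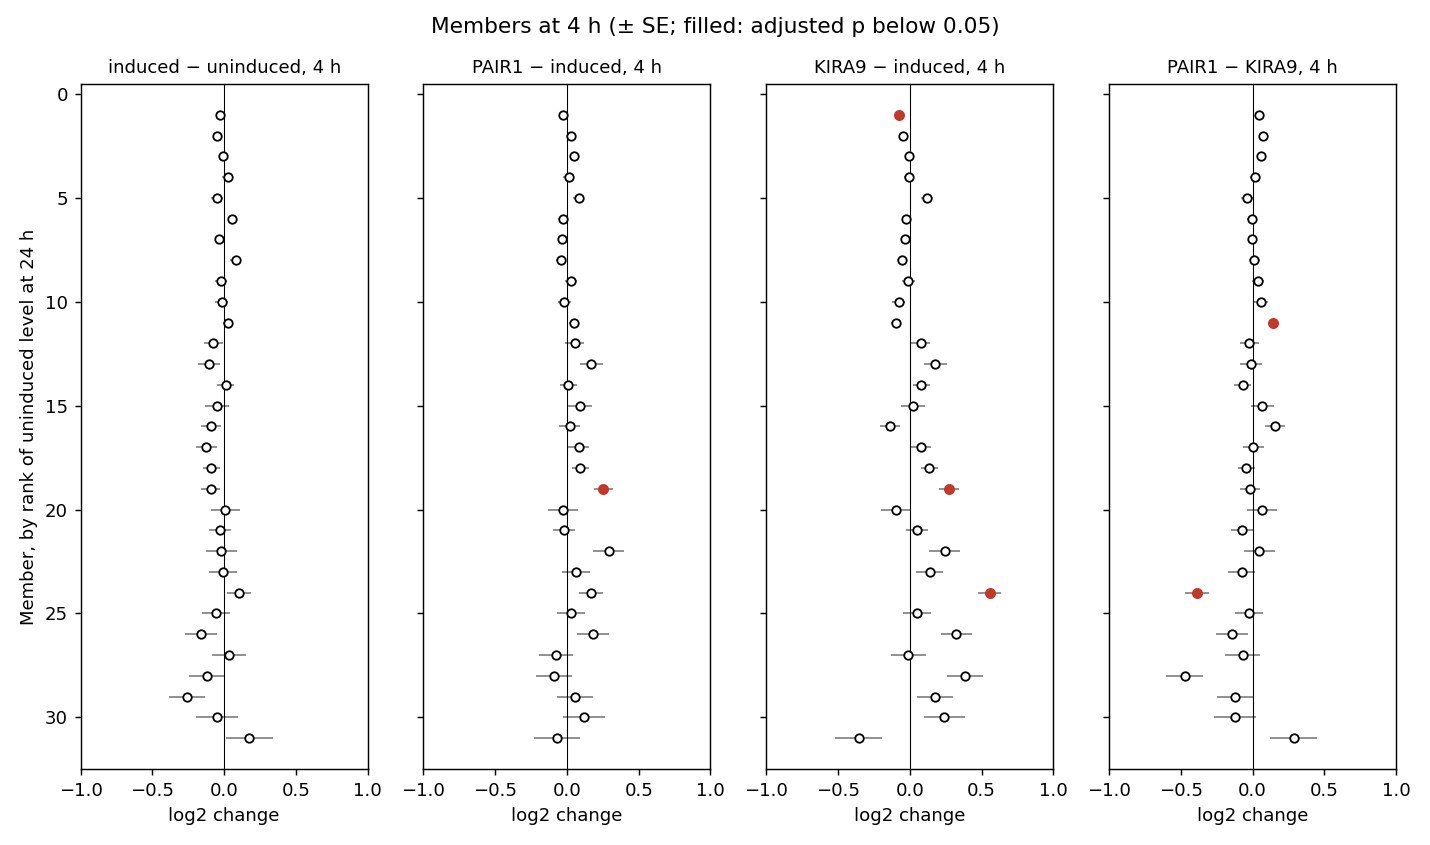
Log2 change at 4 h (horizontal axis) of each member (vertical axis, by rank of uninduced level at 24 h) for induction, for each compound against induced vehicle cells and for PAIR1 against KIRA9, with error bars for the SE. Filled red points are changes with an adjusted p below 0.05: 0 for induction, 1 for PAIR1, 3 for KIRA9 and 2 for PAIR1 against KIRA9.

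ENSRNOG00000014367, of rank 24, had the largest change that passed the test. At 4 h it stood at 15.5, 13.2 and 13.9 CPM in uninduced cells, 15.8, 14.9 and 14.8 in induced cells, 15.5, 16.8 and 18.7 with PAIR1, and 21.6, 22.8 and 22.6 with KIRA9. All KIRA9 libraries lay above all others, while the PAIR1 libraries overlapped the induced ones and lay just above the uninduced ones. Its level with KIRA9 exceeded that of induced cells by 0.56 ± 0.08 (SE, log2; edgeR adjusted p = 4.5e-05) and that of uninduced cells by 0.66 ± 0.08 (edgeR adjusted p = 5.3e-06). With PAIR1 the change from induced cells was 0.17 ± 0.08 (edgeR adjusted p = 0.385), with a 95% interval from -0.001 to 0.34. The compounds differed, PAIR1 minus KIRA9, by -0.39 ± 0.08 (edgeR adjusted p = 0.0084), a call that was lost without PAIR1 replicate 1 (log2 -0.33, adjusted p = 0.075).

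At 24 h the same ID stood at 14.3, 14.9 and 17.1 CPM in uninduced and 6.80, 6.62 and 7.39 in induced libraries. It was at 15.02, 16.8 and 14.8 CPM with PAIR1 and 16.2, 16.6 and 16.4 with KIRA9. The KIRA9 level that lay above uninduced cells at 4 h was thus within the uninduced range at 24 h.

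ENSRNOG00000014310, of rank 19, was the other member raised by KIRA9 at 4 h, and the only one raised by PAIR1. It stood at 26.9, 26.01 and 25.9 CPM in uninduced cells at 4 h, 22.4, 24.2 and 27.0 in induced cells, 27.8, 27.9 and 31.7 with PAIR1, and 29.0, 30.4 and 29.7 with KIRA9. Both compound groups lay above all induced libraries, and induced replicate 1 was the lowest of the 12. The change from induced cells was 0.27 ± 0.07 (SE, log2; edgeR adjusted p = 0.0099) with KIRA9 and 0.25 ± 0.07 (edgeR adjusted p = 0.042) with PAIR1. Against uninduced cells the changes were 0.18 ± 0.07 with KIRA9 (edgeR adjusted p = 0.11) and 0.16 ± 0.07 with PAIR1 (edgeR adjusted p = 0.29), and neither was called.

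The call of this ID for KIRA9 was lost without induced replicate 1 (log2 0.21, adjusted p = 0.075), and the call for PAIR1 was lost when any 1 of the 6 libraries other than induced replicate 3 was left out (log2 0.19 to 0.29, adjusted p = 0.053 to 0.29). DESeq2 did not call it for PAIR1 either (adjusted p = 0.0505). PAIR1 minus KIRA9 was -0.02 ± 0.07, with a 95% interval from -0.16 to 0.12. At 24 h its levels were 31.5, 28.9 and 27.1 CPM in uninduced cells and 13.3, 12.4 and 11.8 in induced cells. They were 27.7, 29.9 and 28.3 CPM with PAIR1, and 30.9, 32.8 and 30.8 with KIRA9. At 24 h both compounds overlapped the uninduced range, whereas at 4 h all their libraries lay above all uninduced ones.

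**Figure D5:**
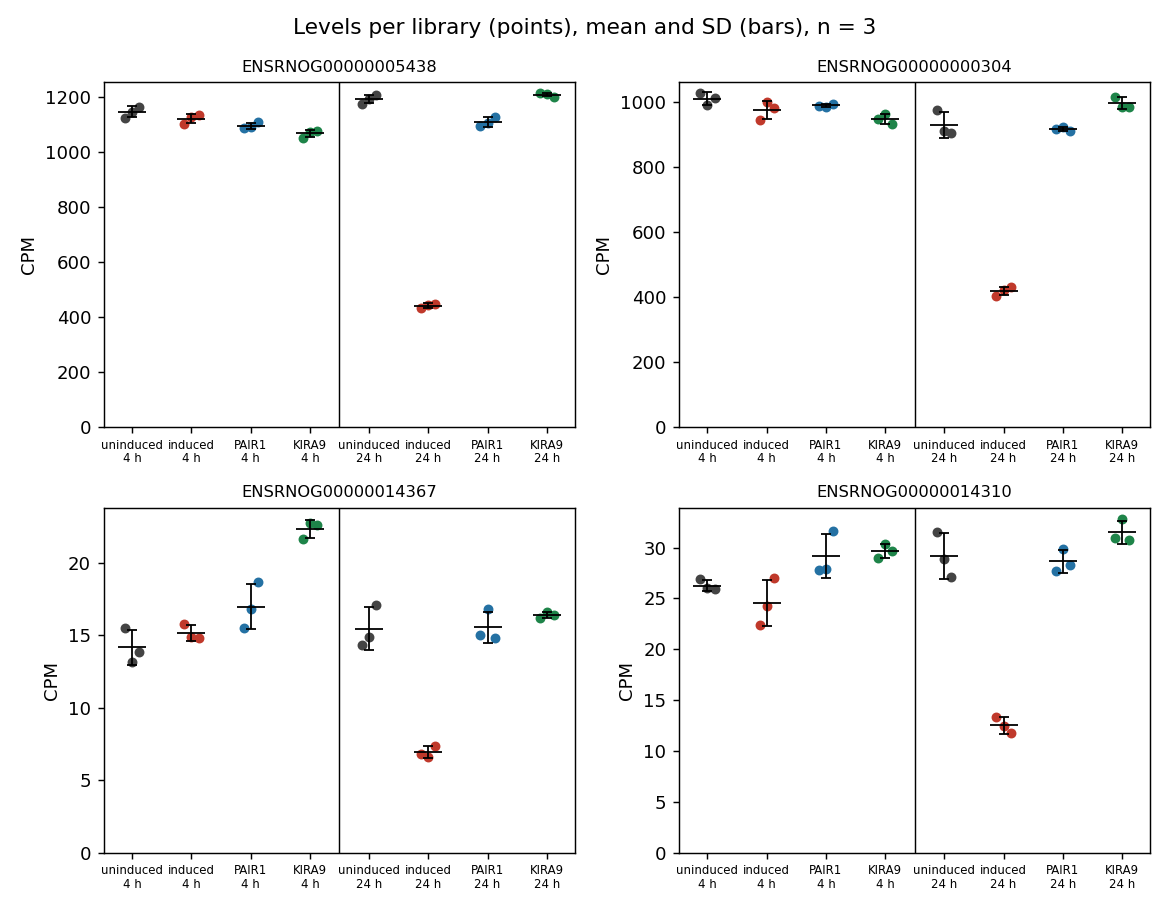
CPM (vertical axis) of the 4 printed IDs in the 4 treatments at 4 h (left of each line) and 24 h (right), with points for libraries and bars for the mean and SD of 3. In each panel the 3 induced libraries at 24 h lie below all others, and ENSRNOG00000014367 is highest with KIRA9 at 4 h, at 21.6 to 22.8 CPM.

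The 2 most abundant members showed small changes in the other direction with KIRA9. ENSRNOG00000005438 stood at 1126, 1148 and 1166 CPM in uninduced cells at 4 h, 1103, 1129 and 1135 in induced cells, 1089.9, 1092 and 1109 with PAIR1, and 1053, 1075 and 1077 with KIRA9. The KIRA9 libraries were below all the others, and the induced libraries overlapped both the uninduced and the PAIR1 ones. It was lower with KIRA9 than in uninduced cells by -0.10 ± 0.02 (SE, log2; edgeR adjusted p = 0.0043) and than in induced cells by -0.07 ± 0.02 (edgeR adjusted p = 0.035). The second call was lost when any 1 of the 6 compared libraries other than induced replicate 1 was left out (adjusted p = 0.057 to 0.15). Without all 6 libraries that stand apart, at 4 h and 24 h, both calls were lost, with log2 -0.06 against induced cells. PAIR1 minus KIRA9 was 0.04 ± 0.02 and was not called (edgeR adjusted p = 0.44; 95% interval from -0.002 to 0.09).

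ENSRNOG00000000304 stood at 1027, 990.3 and 1013 CPM in uninduced cells at 4 h, 944, 1000.3 and 981 in induced cells, 988, 985 and 995 with PAIR1, and 948, 962 and 931 with KIRA9. The KIRA9 libraries lay below the uninduced ones and overlapped the induced ones. The change from uninduced cells with KIRA9 was -0.09 ± 0.03 (SE, log2; edgeR adjusted p = 0.028), and the call was lost without KIRA9 replicate 1 or 3 or uninduced replicate 1 or 3 (adjusted p = 0.059 to 0.13) or without the libraries that stand apart (log2 -0.10, adjusted p = 0.061). These small changes were measured on at least 5852 counts per library. At 24 h the KIRA9 libraries of these 2 IDs overlapped the uninduced range or lay above it.

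Compared with uninduced cells at 4 h, PAIR1-treated cells had 0 of 31 members called by edgeR, while 2.55% of all IDs were called, 1.56% higher and 0.988% lower. At an unadjusted p below 0.05 there were 6, and DESeq2 called 0. The members' changes ran from -0.21 to 0.27 with a median of 0.02. KIRA9-treated cells had 1 member higher and 3 lower, or 12.9% against 10.9% of all IDs (5.44% higher and 5.49% lower), with a median of 0.02 and a range from -0.23 to 0.66. The 3 lower were both most abundant members and the member of rank 16, which stood at 29.03, 28.8 and 28.4 CPM in uninduced and 23.6, 25.04 and 24.7 in KIRA9 libraries (log2 -0.23 ± 0.07, edgeR adjusted p = 0.038). That call was lost without any 1 of the 6 libraries, with an adjusted p of 0.069 to 0.13, and without the libraries that stand apart (adjusted p = 0.11).

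The direct comparison of the compounds at the same time found 2 of 31 members different at 4 h, or 6.45%, against 2.06% of all IDs, 0.821% higher with PAIR1 and 1.24% lower. Besides ENSRNOG00000014367 it was the member of rank 11, at 104, 110 and 107 CPM with PAIR1 and 98.9, 96.7 and 96.6 with KIRA9, so that all PAIR1 libraries were higher (log2 0.14 ± 0.03 SE, edgeR adjusted p = 0.027). Its call was lost without PAIR1 replicate 2 or 3 or KIRA9 replicate 2 or 3 (adjusted p = 0.11 to 0.13). The difference over all 31 had a median of -0.01 and ran from -0.47 to 0.29. For the 11 members of at least 100 CPM it ran from -0.04 to 0.14, with 95% intervals from -0.12 to 0.22, and over all 31 the intervals reached from -0.74 to 0.63. The remaining 29 members did not pass the test, which does not show that the compounds acted alike on them. Because doses are not given, the treatments are compared as applied.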

How the data were processed

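RNA of 24 samples was sequenced after poly(A) enrichment and NEBNext Ultra II library preparation, per the labels' protocols. The authors deposited unnormalized counts of reads for each Ensembl gene ID, and HISAT2 and HTSeq are named per the submitters' processing notes. Version, strand setting, genome build and annotation are not given in the sources used here. Counts of overlapping genes, antisense pairs and close paralogs are therefore uncertain. Columns were matched to samples by name and title.

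Levels are count / column total, per 1 M. Tests used edgeR 4.0.16 in R 4.3.3: filterByExpr over the 8 groups (minimum count 10), which kept 13760 IDs and all 31 members, TMM scaling, 1 quasi-likelihood model of all 24 libraries and Benjamini-Hochberg adjustment over the 13760 IDs, called below 0.05. The SE is the log2 change divided by the root of the F statistic, and 95% intervals use the moderated degrees of freedom. The procedure was checked on simulated data. DESeq2 1.42.0, other filters and scalings, a replicate block and leaving out libraries were alternatives.

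The members and lists were chosen with earlier results of these data known. IDs printed were fixed by rule as the 2 members with the highest uninduced level at 24 h and the 2 with the largest called rise with KIRA9 at 4 h. Members described by rank were singled out after their values were seen. Nothing in the labels says that replicates came from separate cultures, and the p-values then rest on a spread between samples that may be technical. No pair of replicates agreed within sampling noise (chi-square per degree of freedom 3.63 to 19.5). Counting error only is covered by what the depth allows, since PCR copies are not independent molecules.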

Additional observations from a re-analysis of the deposited data

How the results depend on the processing

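Membership depends on the limits of the rule. It gave 140 members with a fall of 1.5-fold (all 31 among them), 8 with shares between -10 and 10%, and 0 when the time characteristic set the times of the 6 libraries induced with vehicle, where 52 IDs fell 2-fold. Leaving out 1 library at 24 h gave 27 to 37 members, of which 22 to 31 were among the 31. TMM-scaled CPM, under which the median change of IDs of at least 5 CPM with induction at 24 h moved from 0.11 to -0.02 on the log2 scale, gave 45, with 26 of the 31 among them and falls of 2.21-fold to 3.27-fold for the 31. Without the 6 libraries that stand apart, an alternative added after seeing the data, there were 39, with 23 of the 31.

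For PAIR1 against induced cells at 4 h the count of members called was 0 with DESeq2, without a filter, with only the 4 h libraries fitted, with a replicate block and at an adjusted p below 0.01. It was 2 without the 6 libraries that stand apart, and 0 to 2 with 1 library left out. For PAIR1 against KIRA9 it was 1 without a filter, with only the 4 h libraries, at 0.01 and without the 6 libraries, and 1 to 2 with 1 library left out. For KIRA9 against uninduced cells it was 2 at 0.01, 1 without the 6 libraries and 2 to 3 with 1 left out. For KIRA9 against induced cells it stayed within 2 to 4, and for induction and PAIR1 against uninduced cells at 0, under every alternative run. The cause of these shifts was not tested. Both KIRA9 calls of ENSRNOG00000014367 were made under each of 13 alternatives, and no called member changed direction. The KIRA9 call of ENSRNOG00000005438 against uninduced cells was lost only without the 6 libraries (adjusted p = 0.057). All 72 alternative medians of the members lay between -0.05 and 0.06.

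Replicate numbers did not pair the samples by the criterion used, a correlation over 0.1 in every pair: deviations of same-numbered libraries at 4 h correlated from -0.21 to 0.0959, 0 of 18 pairs exceeded 0.1, and 6 of 12 libraries correlated best with their own number. With the replicate block 0, 0, 4, 2, 0 and 4 members were called for induction, PAIR1 and KIRA9 against induced cells, PAIR1 against KIRA9, and PAIR1 and KIRA9 against uninduced cells. Depth limits the members below 10 CPM, whose intervals are the widest.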
